A study of Homo sapiens and Mus musculus with 99 samples.

Results

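The 44 genes described here serve DNA replication and mitosis and were taken by symbol from the gene count tables of 2 human lung cancer lines. They comprise 23 replication genes, 20 mitosis genes and CCND1, the gene of cyclin D1, which stands by itself. All 44 were found among 57820 human gene IDs, of which 51996 could be matched to a symbol. All 44 also passed the filter on low counts in each of the 30 comparisons within experiments and the 6 between experiments. The lowest count of any of them in any library was 148.

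The series deals with perforation of epithelial membranes in allergic airway disease, and 51 of its 99 libraries are human. They come from NCI-H1437 (35 libraries) and NCI-H292 (16 libraries), established lines that the labels class as non-small cell lung cancer epithelium, in 6 experiments that each had its own count table and its own control. The 24 groups hold 2 libraries each, except 3 groups of 3. RNA was taken 4 h after treatment, and the labels give no dose. DPBS, a phosphate-buffered saline, was the control throughout. ALT is an extract of the mould Alternaria, and Aeg-S and Aeg-L are the proteins of that mould which together (Aeg-S/L) form a membrane pore. In H1437-1 the groups of 3 were DPBS, ALT and ALT with the MEK inhibitor labelled Tra. In H1437-2 they were DPBS, Aeg-S alone, Aeg-L alone, Aeg-S/L, and Aeg-S/L with Tra. H1437-3 and H292-2 held DPBS, Aeg-S/L, Aeg-S/L with BAPTA-AM, which binds calcium inside cells, and Aeg-S/L with EGTA, which binds calcium outside them. The H292-2 table is named for ALT, and its groups are called here by the sample labels, which give Aeg-S/L. H1437-4 and H292-1 held DPBS, the extract of the wild-type mould (WT ALT), and the extracts labelled aegs KO and aegl KO. No human group had the inhibitor or a chelator without a stimulus, so the effect of these agents by themselves was not analysed here. Each line is a single tumour line, and nothing in the labels says that libraries of a group came from separate cultures, so p-values measure only the spread between these libraries, which may be technical.

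A cell that enters the division cycle first makes cyclin D1, which with its kinases releases the E2F transcription factors from the retinoblastoma protein. E2F factors then switch on the genes that license origins, build the replication fork and supply nucleotides. The genes of mitosis follow later, as cells leave S phase, and are shut off again after division. Growth-factor signalling through RAS, MEK and ERK raises CCND1 in epithelial cells, and the levels of replication and mitosis messengers together are a common reading of how many cells of a culture are cycling. In RNA from whole cultures a lower level can reflect fewer cells in a phase or less RNA per cell, and the 2 cannot be told apart.

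The libraries held between 32425310 and 53172930 counts in genes. Epithelial markers summed to 3582 to 6574 CPM (counts relative to the library's total, on the usual CPM scale and with edgeR's TMM factors) in H1437 and to 4345 to 6009 CPM in H292, and the 6 immune markers to at most 3.25 CPM in H1437 and 1.15 CPM in H292. Of the fibroblast markers COL1A1 alone was above 1 CPM in H1437, with a median of 87.1 CPM, and DCN and COL3A1 were at 0 there. CDH5, listed as an endothelial marker, was between 50.7 and 75.1 CPM in H292. The share of counts from the mitochondrial genome ran from 0.1897% to 5.656%. It was 0.1897% to 0.2173% in the BAPTA-AM libraries of H292-2, against 2.09% to 2.407% in DPBS, and 0.7958% to 1.153% in those of H1437-3, against 1.984% to 2.385%. The part of this share in the BAPTA-AM results was not tested.

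Because the replication and mitosis genes are classic targets of different promoter elements, the RefSeq promoters of the members (GRCh38.p14, 250 bases before to 50 after the gene start) were searched on both strands for the E2F letters TTTCCCGC and TTTGGCGC, for the cell cycle homology region (CHR) letters TTTGAA, and for CCAAT, the box bound by NF-Y. A promoter was matched for 36 of the 44 members, and MCM4, MCM5, CCNE2, AURKA, TTK, BIRC5, TPX2 and CCND1 had no entry. Each member was counted with 1 promoter, while the share over all promoters counts every entry of the table. An E2F match was present in 14 of 20 replication promoters (70%) and in 0 of 16 mitosis promoters, against 2.27% of 35116 promoters in the table. A CHR match was present in 9 of 16 mitosis promoters (56.2%) and in 1 of 20 replication promoters (5%), against 15.2% of all promoters. CCAAT was found in 15 of 20 replication promoters (75%) and 13 of 16 mitosis promoters (81.2%), against 34.6% of all. A match describes letters and is not a binding site. The 120 bases before the start follow for 6 members that carry results, 5′ to 3′ on the gene's own strand, with the matches in capitals (GCGGGAAA, TTCAAA and ATTGG are motifs read on the other strand).

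The first 3 are the replication members PCNA at chr20:5126623-5126742 (minus strand), CDC25A at chr3:48188418-48188537 (minus strand) and MCM6 at chr2:135876444-135876563 (minus strand). They are shown because each holds an E2F match, while the CDC25A messenger rose and those of PCNA and MCM6 fell with the stimulus in H1437-3, H1437-4 and H292-2.
PCNA: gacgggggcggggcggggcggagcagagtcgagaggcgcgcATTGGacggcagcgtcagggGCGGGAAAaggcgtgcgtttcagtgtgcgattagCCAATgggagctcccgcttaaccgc
CDC25A: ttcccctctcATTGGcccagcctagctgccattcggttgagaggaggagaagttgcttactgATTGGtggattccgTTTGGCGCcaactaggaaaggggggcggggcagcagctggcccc
MCM6: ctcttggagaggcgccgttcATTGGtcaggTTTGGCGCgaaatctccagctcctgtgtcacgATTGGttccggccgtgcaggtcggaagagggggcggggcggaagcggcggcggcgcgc

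The next 3 are the mitosis members MKI67 at chr10:128126424-128126543 (minus strand), KIF11 at chr10:92593010-92593129 (plus strand) and PLK1 at chr16:23678769-23678888 (plus strand). They are shown because each holds the CHR letters near the gene start, beside CCAAT. In MKI67 the second CHR match runs into ATTGG, so that 1 stretch in capitals holds both.
MKI67: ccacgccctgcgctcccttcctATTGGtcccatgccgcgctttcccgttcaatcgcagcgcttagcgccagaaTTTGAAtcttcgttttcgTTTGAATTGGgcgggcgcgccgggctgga
KIF11: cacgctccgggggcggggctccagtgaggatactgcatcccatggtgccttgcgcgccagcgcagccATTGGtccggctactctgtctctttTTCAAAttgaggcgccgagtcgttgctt
PLK1: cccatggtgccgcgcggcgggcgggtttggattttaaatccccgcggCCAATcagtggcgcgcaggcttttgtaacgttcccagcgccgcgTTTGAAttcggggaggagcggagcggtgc

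**Figure D1:**
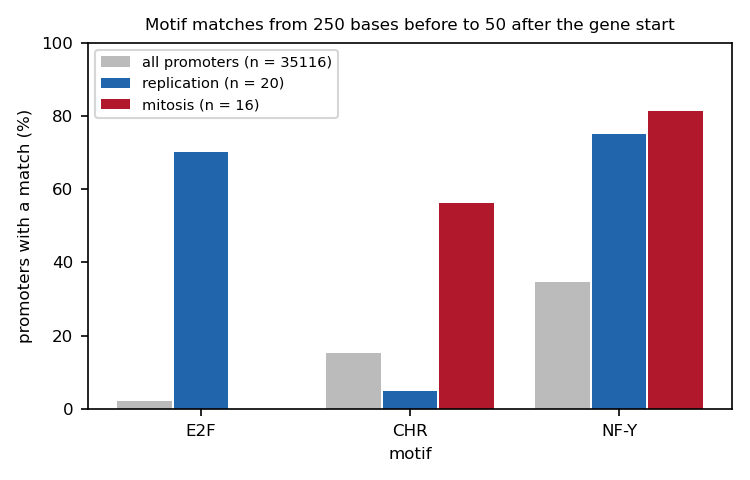
Share of promoters, in percent, that hold each motif, for replication members (20 promoters), mitosis members (16 promoters) and all 35116 promoters of the table. E2F letters stand in 70% of the replication and 0% of the mitosis promoters, and CHR letters in 5% and 56.2%.

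With the mould extract or Aeg-S/L, CCND1 rose in every experiment but H1437-2, where its change did not pass, and several mitosis genes fell in every experiment but H1437-1, where 1 fell. Of the replication genes some fell, and a few rose. In 5 of the 6 experiments the median log2 change of the replication genes was nearer to 0 than that of the mitosis genes, a difference between lists that was not tested. With Aeg-S/L in H292-2, 19 of 20 mitosis genes fell and 0 rose, with a median log2 change of -0.75, while 15 of 23 replication genes fell and 4 rose, with a median of -0.27. In that comparison 21.1% of all tested genes were called lower and 22.1% higher at an adjusted p under 0.05 (edgeR quasi-likelihood test, Benjamini-Hochberg adjustment over all genes), 43.2% in either direction. The median over all tested genes lay between -0.03 and 0.02 in the comparisons within experiments. In H1437-3, Aeg-S/L lowered 13 and raised 1 of the mitosis genes (median -0.36), and lowered 11 and raised 3 of the replication genes (median -0.18), beside 15.8% of all genes lower and 15.4% higher. The mitochondrial share of the Aeg-S/L libraries was 3.261% to 3.45% in H1437-3, against 1.984% to 2.385% in DPBS, and 1.822% to 2.051% in H292-2, against 2.09% to 2.407%, and its part was not tested. H1437-2, the other H1437 experiment with Aeg-S/L, gave 7 mitosis genes that fell (median -0.60), 1 replication gene that fell and 1 that rose (median -0.15), beside 3.1% lower and 3.63% higher of all genes. Those 9 calls in H1437-2, beside 6.72% of all genes in either direction, rest on every library. Each was lost without DPBS 1, DPBS 2, Aeg-S/L 1 or Aeg-S/L 2, which holds for each member named here as risen or fallen in H1437-2.

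In H1437-4 the wild-type extract lowered 15 mitosis genes and raised 0 (median -0.38), and lowered 12 and raised 2 replication genes (median -0.22), beside 17.1% of all genes lower and 15.8% higher. H292-1 had 13 mitosis genes that fell and 0 that rose (median -0.75), with 6 replication genes lower and 2 higher (median -0.22), beside 11.3% and 11.6% of all genes. The mitochondrial share of the WT ALT libraries of H292-1 was 0.9855% to 1.021%, against 2.508% to 2.792% in DPBS, and its part was not tested. Without DPBS 1 or without WT ALT 2 that count of 22 calls, CCND1 included, was 14. In H1437-1 ALT lowered 1 mitosis gene and 3 replication genes and raised none of either (medians -0.26 and -0.33), beside 1.13% lower and 3.59% higher of all genes. The H1437-1 DPBS libraries differed widely, and DPBS 1 stood apart with 3.258% mitochondrial counts, against 1.639% in the lowest of the 3. The 5 members called in H1437-1 became 11 without DPBS 1, with 2 higher and 9 lower, 3 without DPBS 2, and 0 without any 1 of the ALT libraries.

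Taken library by library, the median of the 20 mitosis genes relative to the DPBS mean of the experiment lay at -0.76 and -0.74 in the Aeg-S/L libraries of H292-2 and at -0.76 and -0.72 in the WT ALT libraries of H292-1. In H1437 it lay at -0.37 and -0.36 with Aeg-S/L in H1437-3, at -0.61 and -0.56 in H1437-2, and at -0.43 and -0.35 with WT ALT in H1437-4. The replication medians of the same libraries were nearer to 0, between -0.31 and -0.09. The lowest such median of a DPBS library in these 5 experiments was -0.04, above all of these stimulated medians in both lists. With 2 DPBS libraries centred on their own mean, the control medians lie close to 0 by construction, so this gap carries no test. Aeg-S alone in H1437-2, with no member called, also lay outside DPBS in the mitosis list, at 0.10 and 0.12 against -0.02 and 0.02. H1437-1 differed: its ALT libraries had mitosis medians of -0.10, -0.17 and -0.27, among the DPBS libraries at -0.23, 0.13 and 0.15. Their replication medians of -0.31, -0.35 and -0.37 lay below those of DPBS, at -0.10, 0.08 and 0.00.

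**Figure D2:**
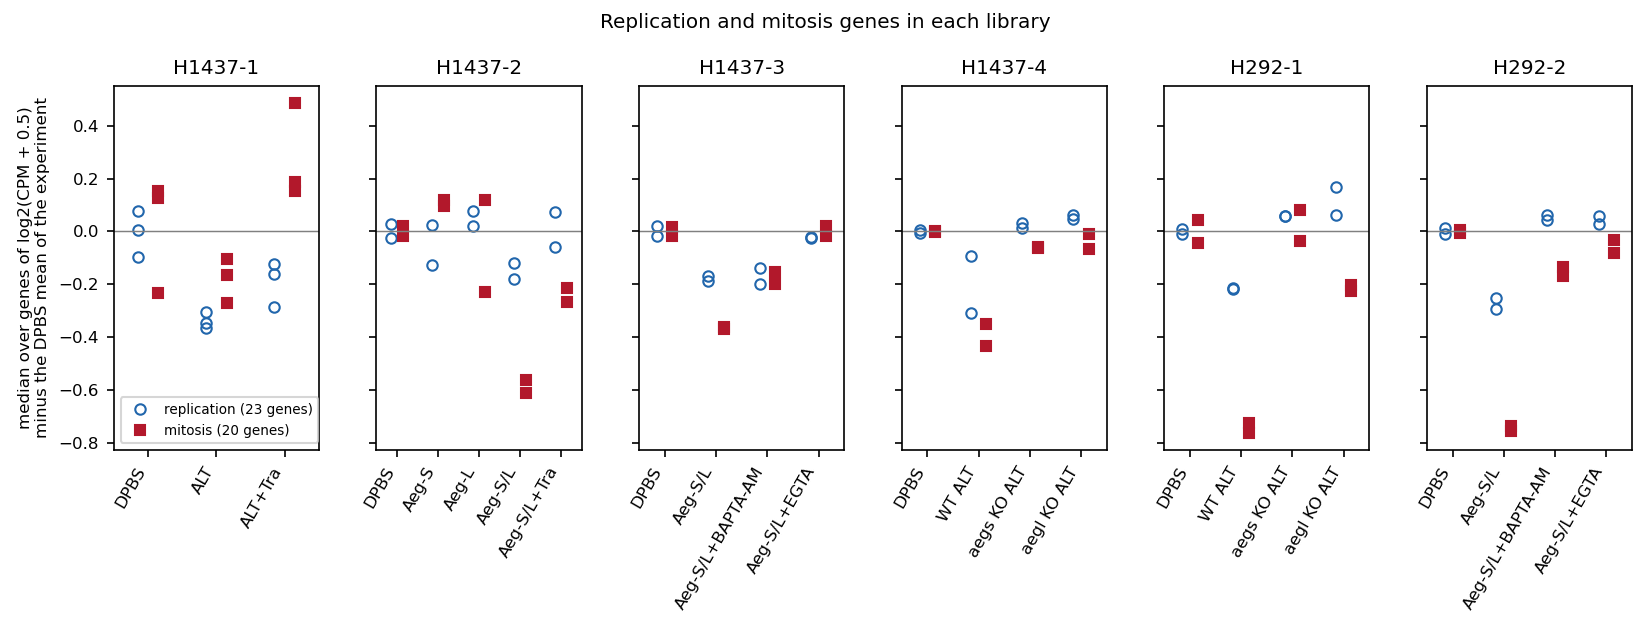
Median over the 23 replication genes (open circles) and the 20 mitosis genes (squares) of log2(CPM + 0.5) minus the DPBS mean of the experiment, 1 point per library, in the 6 experiments. Mitosis medians of the stimulated libraries reach -0.76, below all replication medians, and the mitosis medians with knockout extracts, EGTA or BAPTA-AM lie nearer to 0.

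CCND1 (chr11:69455855-69469242, plus strand, hg19) encodes cyclin D1, the partner of CDK4 and CDK6 at the start of the cycle. In H1437-1 it was at 109, 157 and 173 CPM in the 3 DPBS libraries and at 406, 382 and 374 CPM with ALT, and it rose by 1.40 on the log2 scale (SE 0.27, adjusted p = 0.012). WT ALT took it from 228 and 227 CPM to 354 and 333 CPM in H1437-4, a rise of 0.59 (SE 0.06, adjusted p = 5.6e-07), and from 221 and 316 CPM to 541 and 533 CPM in H292-1, a rise of 1.0 (SE 0.20, adjusted p = 0.0049). The stimulated libraries lay above all controls in these 3 experiments, although the 2 DPBS libraries of H292-1 were themselves apart and the call there was lost without DPBS 1 (0.77). In H1437-1 it was lost without ALT 1 (1.36), ALT 2 (1.41), ALT 3 (1.42) or DPBS 2 (1.44). With Aeg-S/L, CCND1 was at 211 and 213 CPM in DPBS and 282 and 293 CPM in H1437-3 (log2 change 0.44, SE 0.05, adjusted p = 1.3e-05), and at 301 and 314 CPM in DPBS and 442 and 459.7 CPM in H292-2 (0.55, SE 0.07, adjusted p = 2.9e-06). In H1437-2 the values were 252 and 242 CPM in DPBS and 351 and 359.96 CPM with Aeg-S/L, a change of 0.52 that did not pass the test (SE 0.20, adjusted p = 0.14). In each of the 6 experiments the lowest CCND1 value with the stimulus stood above the highest DPBS value. CCND1 also stood above all DPBS values with aegs KO and aegl KO in H1437-4 and aegl KO in H292-1, where edgeR did not call it. Such gaps between libraries, here and below, carry no test, and their share over all genes was not counted. With Aeg-S alone, where no member was called, 8 mitosis genes stood above all DPBS values and 5 below.

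Over the 51 libraries, each centred on the DPBS mean of its experiment, the member whose log2 CPM followed CCND1 most closely was CDC25A, with a Pearson r of 0.735. POLE came next at 0.267, then RRM2 at 0.104, CDT1 at 0.045 and POLA1 at 0.004. The other 38 of the 43 members had a negative r, down to -0.728 for CCNB2, a gene singled out after its values were seen. These values describe 51 libraries that share experiments and groups, and carry no test.

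The G1/S regulators split among themselves. CDC25A, the phosphatase that frees cyclin-dependent kinase 2 for the start of S phase, rose in 5 of the 6 experiments, whereas the cyclin E genes and E2F2 rose in none. CDC25A stood at 43.4 and 48.5 CPM in DPBS and 65 and 70.8 CPM with Aeg-S/L in H1437-3, a rise of 0.56 (SE 0.08, adjusted p = 6.4e-05). In H292-2 it went from 53.4 and 49.5 CPM to 89.6 and 95.4 CPM, a rise of 0.85 (SE 0.08, adjusted p = 2.9e-08). The H1437-2 libraries gave 46.9 and 38.8 CPM in DPBS and 68.6 and 66.3 CPM (log2 change 0.65, SE 0.17, adjusted p = 0.04). The 2 groups did not overlap in any of these. With WT ALT the gene moved from 59.9 and 57 CPM to 106 and 104 CPM in H292-1 (0.85, SE 0.13, adjusted p = 0.0011) and less in H1437-4, from 46.2 and 46.9 CPM to 55.3 and 61.2 CPM (0.32, SE 0.07, adjusted p = 0.0025). In H1437-1 it was at 26, 39.7 and 37.3 CPM in DPBS and 56, 55 and 55.8 CPM with ALT, a change of 0.70 that did not pass (SE 0.19, adjusted p = 0.069), although all 3 ALT libraries lay above all 3 controls.

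CCNE1 and CCNE2 encode the E cyclins that act with that kinase. CCNE2 was at 20.4 and 15.9 CPM in DPBS and 8.08 and 8.57 CPM with WT ALT in H292-1, a fall by 1.12 (SE 0.19, adjusted p = 0.0021), and at 15.7 and 15.7 CPM in DPBS and 9.07 and 8.75 CPM in H292-2, a fall by 0.81 (SE 0.13, adjusted p = 3.6e-05). In H1437 its changes were 0.02 in H1437-1, -0.57 in H1437-2, -0.27 in H1437-3 and -0.36 in H1437-4, none of which passed. Its H1437-3 values were 18.3 and 17.1 CPM in DPBS and 15.7 and 13.8 CPM with Aeg-S/L, and those of H1437-4 16.7 and 17.4 CPM in DPBS and 10.4 and 16.2 CPM. CCNE1 likewise fell only in the H292 comparisons among the 6, by 0.53 in H292-1 (23.8 and 22.2 CPM in DPBS, 15.9 and 15.9 CPM with WT ALT) and by 0.31 in H292-2 (20.8 and 20.7 CPM in DPBS and 17.9 and 15.6 CPM). In H1437-4 CCNE1 was at 16.7 and 13.6 CPM in DPBS and 15 and 16.8 CPM, and in H1437-3 at 14.6 and 13.9 CPM in DPBS and 15.6 and 15.5 CPM. The CCNE1 call was lost without any 1 of the 4 libraries (-0.58 to -0.47) in H292-1, without Aeg-S/L 2 (-0.22), DPBS 1 (-0.30) or DPBS 2 (-0.32) in H292-2, and by DESeq2 in H292-2. For neither gene did the joint fit call the effect of WT ALT or of Aeg-S/L different between the lines: the differences, H292 minus H1437, were -0.80 and -0.53 for CCNE2 and -0.63 and -0.42 for CCNE1.

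E2F1 and E2F2 encode activating E2F factors. E2F2 fell by 1.09 in H1437-1 (SE 0.20, adjusted p = 0.011), where it was at 73.4, 72.7 and 74.4 CPM in DPBS and 33.9, 36.6 and 33.5 CPM with ALT. It fell by 0.64 in H1437-4, from 74.6 and 76.4 CPM to 47.7 and 49 CPM, by 0.51 in H1437-3, from 74.2 and 75.3 CPM to 53.9 and 51 CPM, and by 0.56 in H292-2, from 14.8 and 15 CPM to 10.2 and 9.94 CPM. In H292-1 it was at 14 and 13.7 CPM in DPBS and 13.4 and 13.6 CPM with WT ALT. E2F1 was called in 1 of the 6 comparisons, with a rise of 0.26 in H292-2 (SE 0.06, adjusted p = 0.0018), from 76 and 77.5 CPM to 91.4 and 92.6 CPM. Elsewhere it was at 179 and 182 CPM in DPBS and 172 and 171 CPM with WT ALT in H1437-4, 187 and 162 CPM in DPBS and 166 and 161 CPM with Aeg-S/L in H1437-3, and 76.8 and 79.9 CPM in DPBS and 99.5 and 93.1 CPM with WT ALT in H292-1.

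Of the 15 genes of origin licensing and the fork, 10 fell and 2 rose with Aeg-S/L in H292-2, 8 fell and 2 rose in H1437-3, 11 fell and 1 rose with WT ALT in H1437-4, and 3 fell and 1 rose in H292-1. The shares of all genes lower and higher were 21.1% and 22.1%, 15.8% and 15.4%, 17.1% and 15.8%, and 11.3% and 11.6% in the same order, so that 3 of 15 in H292-1 lies near its background. PCNA, the sliding clamp of the replication polymerases, went from 178 and 172 CPM to 107 and 108 CPM in H292-2, a fall by 0.70 (SE 0.06, adjusted p = 8.8e-09), and from 197 and 209.9 CPM to 116 and 117 CPM in H292-1, a fall by 0.81 (SE 0.13, adjusted p = 0.0017). In H1437 the falls were smaller: 0.22 in H1437-3, from 269 and 256 CPM to 225 and 224 CPM, and 0.22 in H1437-4, from 272 and 253 CPM to 209.7 and 240.03 CPM. No PCNA value with a stimulus reached a control value in these 4 experiments, and the call in H1437-4 was lost without DPBS 1 (-0.17) or WT ALT 1 (-0.13). In H1437-1 and H1437-2 its changes of -0.40 and -0.19 did not pass.

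CDC6, which loads the MCM helicase onto origins, fell in the same 4 comparisons. It was at 126 and 130.2 CPM in DPBS and 85.4 and 85.1 CPM with Aeg-S/L in H292-2 (fell by 0.59), and at 236 and 210.3 CPM in DPBS and 184 and 183 CPM in H1437-3 (fell by 0.28). With WT ALT it was at 152 and 172 CPM against 218 and 217 CPM in DPBS of H1437-4 (fell by 0.42), and at 88.3 and 97.9 CPM against 143 and 133 CPM in H292-1 (fell by 0.57). GINS1, a subunit of the active helicase, was called lower in 5 of the 6 comparisons, most often among the genes of origin licensing and the fork. It fell by 0.68 in H1437-2 (SE 0.19, adjusted p = 0.049), by 0.46 in H1437-3, by 0.44 in H1437-4 and by 0.58 in H292-1. In H292-2 it fell by 0.92, from 24 and 21.5 CPM to 11.9 and 12.2 CPM. In H292-1 the CDC6 call was lost without DPBS 1 (-0.51), WT ALT 1 (-0.50) or WT ALT 2 (-0.65), and that of GINS1 without DPBS 1 (-0.53), WT ALT 1 (-0.53) or WT ALT 2 (-0.63).

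The 6 subunits of the MCM2-7 helicase moved by small amounts outside H1437-1. All 6 fell with Aeg-S/L in H292-2, by 0.16 (MCM7) to 0.52 (MCM6). In H1437-3 MCM3, MCM4, MCM5 and MCM6 fell, by 0.24 to 0.38, while MCM2 and MCM7 were at 0.04 and -0.05. With WT ALT in H1437-4, MCM3 to MCM7 fell, by 0.19 to 0.43, and MCM2 was at -0.04. The MCM7 call was lost without DPBS 1 (-0.17) or WT ALT 1 (-0.09) in H1437-4 and without Aeg-S/L 1 (-0.18), Aeg-S/L 2 (-0.16) or DPBS 2 (-0.15) in H292-2. None of the 6 was called in H292-1, where the changes ran from -0.32 to -0.14, and none in H1437-2. In H1437-1 ALT lowered MCM2 by 0.78 (SE 0.18, adjusted p = 0.032) and MCM5 by 0.94 (SE 0.21, adjusted p = 0.029), the only subunits called there. MCM2 itself was at 481, 375 and 396 CPM in DPBS and 257, 238 and 233 CPM with ALT in H1437-1, at 431 and 434 CPM in DPBS and 392 and 447 CPM with WT ALT in H1437-4, at 404 and 421 CPM in DPBS and 429.97 and 420.2 CPM with Aeg-S/L in H1437-3, at 366 and 386 CPM in DPBS and 340.3 and 330.1 CPM with WT ALT in H292-1, and at 424 and 412 CPM in DPBS and 351 and 341 CPM with Aeg-S/L in H292-2. Its changes in H1437-1 and H1437-4 were not called different from each other by the joint fit of the 2 extract experiments, which called 0 members (and 0 by DESeq2).

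A few replication genes went the other way, beside 22.1% of all genes higher in H292-2, 15.4% in H1437-3, 15.8% in H1437-4 and 11.6% in H292-1. The share of replication genes that rose was below that of all genes in each of these experiments. POLE, the catalytic subunit of the leading-strand polymerase, rose by 0.65 in H292-1 (SE 0.14, adjusted p = 0.0073), from 151 and 153 CPM to 242 and 237 CPM, by 0.37 in H292-2, from 184 and 178 CPM to 236 and 231 CPM, and by 0.22 in H1437-3, from 95.4 and 102 CPM to 107 and 123 CPM. In H1437-4 it fell by 0.24, from 103 and 109 CPM to 95.3 and 84.9 CPM. The POLE call was lost without DPBS 1 (0.65), WT ALT 1 (0.64) or WT ALT 2 (0.67) in H292-1, without Aeg-S/L 2 (0.10), DPBS 1 (0.17) or DPBS 2 (0.27) and by DESeq2 in H1437-3, and without DPBS 2 (-0.19) or WT ALT 2 (-0.16) in H1437-4. The gene CDT1, whose protein licenses origins with CDC6, rose by 0.31 in H1437-3, from 105 and 94.9 CPM to 126 and 121 CPM, and by 0.27 in H1437-4, from 110.3 and 111 CPM to 140.1 and 126 CPM, and was at 0.50 in H292-1 and 0.01 in H292-2. CDC45, a partner of the GINS complex, rose by 0.31 in H292-2, a call lost without Aeg-S/L 1 (0.27) or DPBS 1 (0.25), and was at -0.14, -0.05 and 0.06 in H1437-3, H1437-4 and H292-1.

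Among the 3 genes of nucleotide supply, RRM1, the large subunit of ribonucleotide reductase, fell by 0.34 in H292-2 and by 0.20 in H1437-3. RRM2, the small subunit, fell in H1437-3, by 0.18 (SE 0.05, adjusted p = 0.018), from 379 and 354 CPM to 326 and 322 CPM. In 3 other experiments its changes did not pass, with 368 and 363 CPM in DPBS and 376 and 385 CPM with Aeg-S/L in H292-2, 346 and 337 CPM in DPBS and 312 and 353 CPM with WT ALT in H1437-4, and 374 and 382 CPM in DPBS and 346 and 364 CPM in H292-1. TYMS, the thymidylate synthase, fell by 0.38 in H292-1 and by 0.23 in H292-2. The RRM2 call in H1437-3 was lost without Aeg-S/L 1 (-0.19), Aeg-S/L 2 (-0.18) or DPBS 1 (-0.13), that of RRM1 without Aeg-S/L 1 (-0.21), Aeg-S/L 2 (-0.20) or DPBS 1 (-0.18), and that of TYMS without any 1 of the 4 libraries (-0.41 to -0.34) in H292-1 and any 1 of the 4 libraries (-0.26 to -0.21) in H292-2. The library kit does not mark the strand, so reads of TYMS and of ENOSF1, which overlaps it on the other strand, cannot be told apart.

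Of the 7 genes of mitotic entry, CCNA2 and CDC25C fell most often. CCNA2 encodes cyclin A2, which spans S phase and the entry into mitosis, and was called lower in 5 of the 6 comparisons. In H292-2 it was at 192 and 187 CPM in DPBS and 80.5 and 80.6 CPM with Aeg-S/L, a fall by 1.23 (SE 0.06, adjusted p = 7.0e-12). In H1437-3 the values were 121 and 119 CPM in DPBS and 70.6 and 66.9 CPM, a fall by 0.80 (SE 0.07, adjusted p = 1.3e-07). H1437-2 gave 120.04 and 133 CPM in DPBS and 74.7 and 77.8 CPM, a fall by 0.73 (SE 0.16, adjusted p = 0.019). With WT ALT it fell by 0.89 in H1437-4 and by 0.84 in H292-1, and control and stimulated libraries were apart in each of these experiments. In H1437-1 the ALT libraries at 105, 91.6 and 86.1 CPM lay among the DPBS libraries at 82.2, 138 and 149 CPM.

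CDC25C, the phosphatase that activates CDK1 at entry into mitosis, was the one member lower in all 6 comparisons past the test. Its falls were 0.93 in H1437-1 (SE 0.19, adjusted p = 0.015), 1.05 in H1437-2, 0.75 in H1437-3, 0.92 in H1437-4, 0.94 in H292-1 and 0.97 in H292-2. The libraries of H1437-1 were at 32, 25.3 and 24.4 CPM in DPBS and 15, 13.6 and 14.2 CPM with ALT, and those of H292-2 at 22.2 and 21.1 CPM in DPBS and 11.5 and 10.6 CPM with Aeg-S/L. In H1437-4 CDC25C was at 19.5 and 22.4 CPM in DPBS and 10.0 and 12.1 CPM with WT ALT, and in H1437-2 at 23.6 and 22.1 CPM in DPBS and 9.31 and 12.8 CPM with Aeg-S/L. No stimulated value reached a control value in these 4 experiments. CDK1, the kinase itself, fell in H292-2, by 0.29, and was at -0.50 in H292-1, 0.11 in H1437-3 and 0.11 in H1437-4.

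The B cyclins, the partners of CDK1, moved less. CCNB1 fell in H292-2, by 0.28 (SE 0.05, adjusted p = 2.9e-04), from 337 and 335 CPM to 283 and 272 CPM, and in none of the other 5 comparisons. It was at 366, 335 and 316 CPM in DPBS and 369, 339 and 338 CPM with ALT in H1437-1, at 293 and 301 CPM in DPBS and 271 and 277 CPM with Aeg-S/L in H1437-2, and at 302 and 289.96 CPM in DPBS and 288 and 271 CPM in H1437-3. With WT ALT it was at 285 and 308 CPM against 301 and 297 CPM in H1437-4, and at 295 and 308 CPM against 367 and 377 CPM in H292-1. All these H1437 values of CCNB1, stimulated or not, lay between 271 and 369 CPM. CCNB2 fell by 0.28 in H1437-4, 0.30 in H1437-3, 0.68 in H292-1 and 0.45 in H292-2, and the call was lost without DPBS 1 (-0.22) in H1437-4 and without DPBS 1 (-0.59), WT ALT 1 (-0.62) or WT ALT 2 (-0.74) in H292-1.

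AURKA, the kinase that matures the spindle poles, was called different between the lines for both stimuli. In H292-2 it was at 247 and 234 CPM in DPBS and 109 and 108 CPM with Aeg-S/L, a fall by 1.15 (SE 0.06, adjusted p = 3.2e-12), and in H292-1 at 282 and 262 CPM in DPBS and 126 and 126 CPM with WT ALT, a fall by 1.11 (SE 0.12, adjusted p = 1.7e-04). In H1437-4 it fell by 0.27, from 177 and 181 CPM to 140.4 and 157 CPM. The other H1437 changes, -0.11 in H1437-3 (181 and 175 CPM in DPBS and 162 and 167 CPM), -0.32 in H1437-2 and -0.02 in H1437-1, did not pass. PLK1, the kinase that drives mitotic entry and exit, fell by 0.68 in H292-2, from 275 and 278 CPM to 174 and 171 CPM, by 0.31 in H1437-4, from 357 and 355 CPM to 286 and 289 CPM, and by 0.19 in H1437-3, from 338 and 329 CPM to 288 and 297 CPM. The call in H1437-3 was lost without any 1 of the 4 libraries (-0.22 to -0.17). In H292-1, with 224 and 282 CPM in DPBS and 202 and 202 CPM with WT ALT, its change of -0.33 did not pass.

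Of the 6 genes of the spindle checkpoint, the chromosomal passenger complex and exit, TTK and BUB1B fell most often. TTK, the kinase that starts checkpoint signalling at unattached kinetochores, fell by 1.04 in H1437-2, 0.89 in H1437-3, 0.84 in H1437-4, 1.29 in H292-1 and 1.15 in H292-2. Its H292-1 values were 109 and 114 CPM in DPBS and 43.8 and 47 CPM with WT ALT, and its H1437-2 values 64.7 and 71.3 CPM in DPBS and 31.8 and 34.4 CPM with Aeg-S/L. In H1437-3 TTK was at 54.8 and 56.4 CPM in DPBS and 30.9 and 29.2 CPM with Aeg-S/L. BUB1B fell in the same 5 comparisons, by 0.45 to 0.70, and BUB1 in 4 of them, by 0.29 to 0.62. In H292-1 the BUB1B call was lost without DPBS 1 (-0.59) or WT ALT 2 (-0.62) and that of BUB1 without WT ALT 1 (-0.60) or WT ALT 2 (-0.58). BIRC5, the survivin subunit of that complex, was called in none of the 6, with changes from -0.26 to 0.00, and AURKB, its kinase, rose by 0.24 in H1437-3, a call lost without Aeg-S/L 1 (0.26), Aeg-S/L 2 (0.19) or DPBS 2 (0.17), and fell by 0.42 in H292-2. CDC20, the activator of the anaphase-promoting complex, fell in H292-2 by 0.15, from 322 and 342 CPM to 299 and 299 CPM, a call lost without Aeg-S/L 1 (-0.15), Aeg-S/L 2 (-0.16) or DPBS 2 (-0.12), and was called in none of the other 5. In H1437-4 it was at 152 and 151 CPM in DPBS and 153 and 138 CPM with WT ALT, in H1437-3 at 154 and 133 CPM in DPBS and 137 and 135 CPM with Aeg-S/L, and in H292-1 at 299 and 370.4 CPM in DPBS and 338 and 344 CPM.

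The 5 spindle motors and spindle proteins fell together in H292-2 and H1437-4, and 4 of the 5 in H1437-3 and H292-1, where TPX2, which activates AURKA on the spindle, was at 0.01 and -0.03. KIF11, the kinesin that pushes the spindle poles apart, fell by 1.25 in H292-2 (SE 0.07, adjusted p = 1.1e-11), from 159 and 150.4 CPM to 63.3 and 66.6 CPM, and by 0.50 in H1437-3, from 162 and 174 CPM to 117 and 119.7 CPM. CENPF, a large kinetochore protein, fell by 0.94 in H1437-4, from 226 and 239 CPM to 128 and 114 CPM, by 1.03 in H292-1, by 0.70 in H1437-3 and by 1.19 in H292-2. In H1437-3 its DPBS libraries lay far apart, with a mean of 224 CPM and an SD of 62.3 CPM, against 138 CPM (SD 3.05 CPM) with Aeg-S/L. The CENPF change of -0.90 in H1437-2 did not pass (SE 0.29, adjusted p = 0.085). CENPE and KIF20A, the motors of chromosome congression and of cytokinesis, fell in these 4 experiments by 0.41 to 0.82 and by 0.51 to 1.08.

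MKI67 and TOP2A coat and untangle the mitotic chromosomes, and MKI67 is the usual marker of cycling cells. MKI67 held the largest fall of the 44 members with Aeg-S/L in H292-2, 1.53 (SE 0.06, adjusted p = 2.8e-13), from 629.8 and 706 CPM to 219 and 242 CPM. In H292-1 it fell by 1.15 (SE 0.19, adjusted p = 0.0019), from 516 and 487 CPM to 229 and 223 CPM. In H1437 it fell by 0.79 in H1437-4, from 466 and 439 CPM to 278 and 246 CPM, and by 0.49 in H1437-3, from 325 and 534 CPM to 296 and 314 CPM. No stimulated value reached a control value in these 4 experiments, but the DPBS libraries of H1437-3 lay far apart, and the call there was lost without Aeg-S/L 1 (-0.46) or DPBS 2 (-0.09) and by DESeq2. In H1437-1 the spread among controls was far wider, with 235, 478 and 653 CPM in DPBS and 416, 428 and 355 CPM with ALT, and the change of -0.19 did not pass. In H1437-2 MKI67 was at 588 and 529 CPM in DPBS and 279.998 and 361 CPM with Aeg-S/L, a change of -0.80 (SE 0.31, adjusted p = 0.15) without overlap. TOP2A fell by 0.88 in H292-2, from 602 and 574 CPM to 310.2 and 330.4 CPM, by 1.07 in H292-1, from 641 and 522 CPM to 281 and 275 CPM, by 0.81 in H1437-4, from 448 and 449 CPM to 240.4 and 271 CPM, by 0.79 in H1437-3, from 425 and 482 CPM to 262 and 261 CPM, and by 0.88 in H1437-2.

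**Figure D3:**
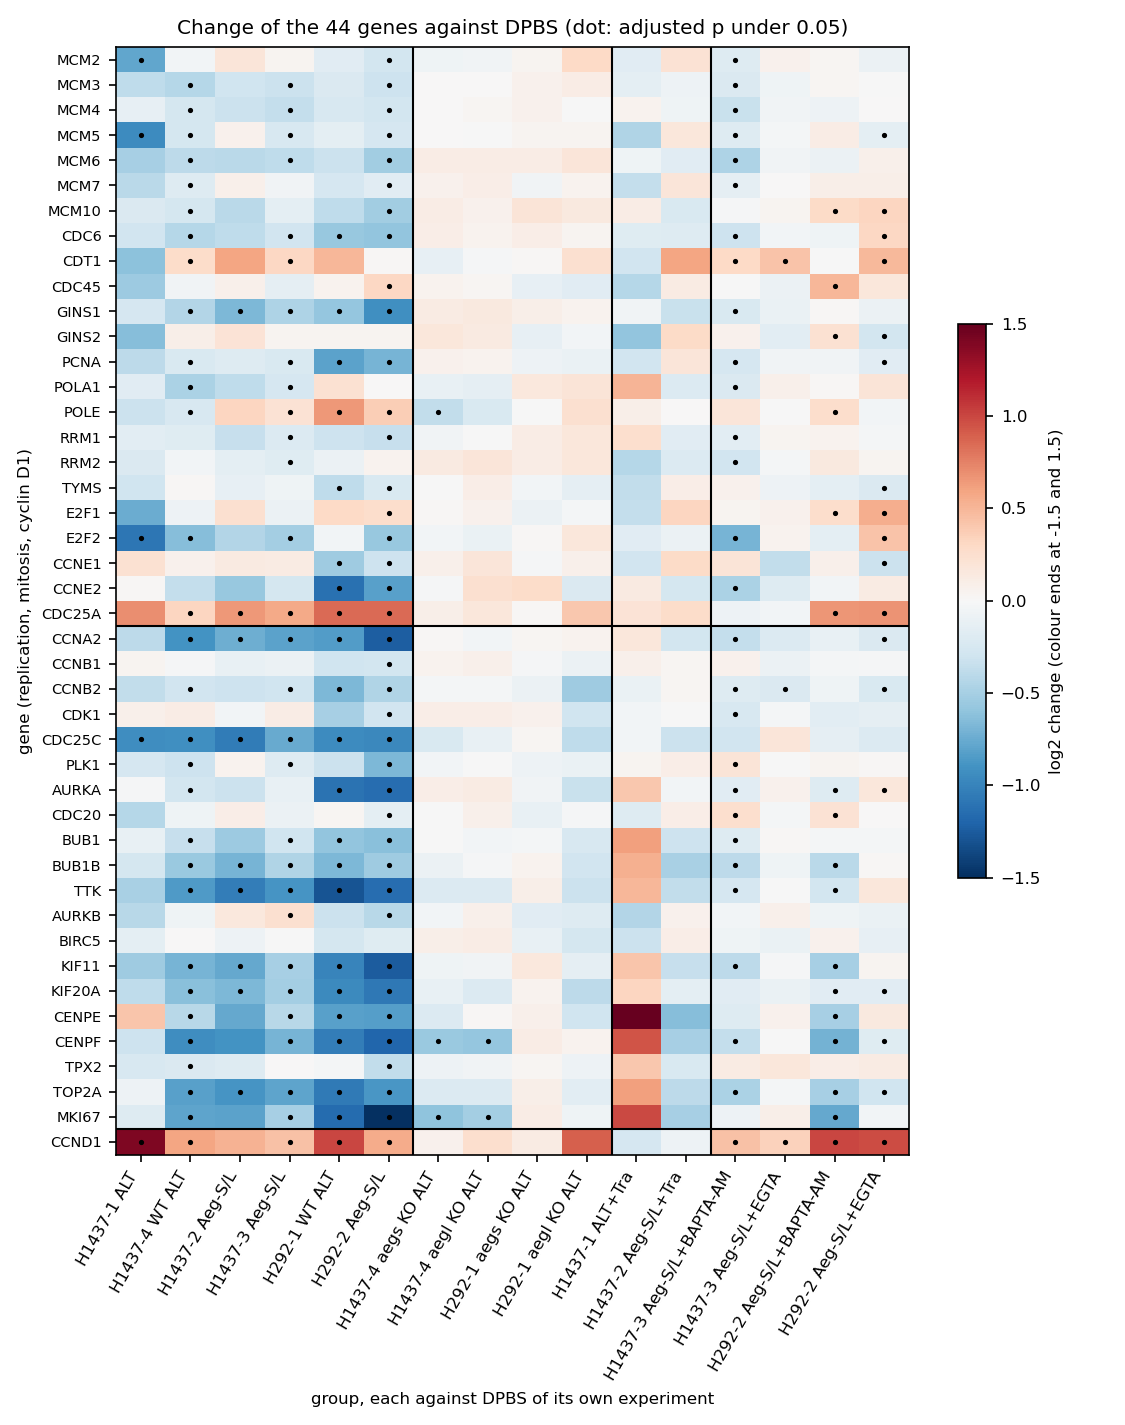
Log2 change of each of the 44 members (rows, grouped by role) against DPBS of the same experiment. Columns are the stimulus, knockout-extract, inhibitor and chelator groups, without Aeg-S alone and Aeg-L alone. Colour runs from blue (lower) to red (higher), ends at ±1.5, with a dot where the adjusted p was under 0.05. Most cells of the mitosis rows are blue in the stimulus columns, with exceptions such as AURKB in H1437-3 and CENPE in H1437-1, and CCND1 and CDC25A are red there. Few cells in the knockout-extract columns carry a dot, and CCND1 is also red in the chelator columns of H1437-3 and H292-2.

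The mitosis genes differ widely in exon length, and the longer ones had the lower log2 changes. Over the 20 mitosis genes the log2 change with Aeg-S/L followed exon length with a Spearman rho of -0.52 in H292-2, -0.42 in H1437-3 and -0.57 in H1437-2, and with WT ALT with -0.50 in H1437-4 and -0.51 in H292-1. Over all tested genes the values were -0.03, -0.09, -0.15, -0.16 and 0.06 in the same order. These correlations are across genes of shared libraries, with n = 20 mitosis genes and no test. With the trend of log2 CPM on exon length removed from every library, an alternative chosen after seeing the data, 39 members were called in H292-2 (39 without the step), 31 in H1437-3 (29), 29 in H1437-4 (30), 23 in H292-1 (22) and 10 in H1437-2 (9). That trend was fitted over all tested genes, so a length relation held only by the mitosis genes would remain after the step. The part of exon length in the falls of these genes was not tested.

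In H1437-1 the DPBS libraries differed among themselves, and library 1 stood apart in several members. TOP2A was at 177, 519.6 and 529.9 CPM in DPBS, a span that held the ALT values of 410.3, 395 and 358 CPM. E2F1 was at 274, 185 and 174 CPM in DPBS and, below all of these, at 123, 125 and 131 CPM with ALT. CCNE2 went the other way in library 1, at 4.74, 18.4 and 13.4 CPM in DPBS and 13.7, 11.9 and 11.5 CPM with ALT. PCNA did not overlap, at 322, 277 and 280.4 CPM in DPBS and 236, 214 and 218 CPM with ALT, yet its log2 change was -0.40 and did not pass. In H1437-2, where the libraries of a group lay closer together, TOP2A was at 494 and 534 CPM in DPBS and 263 and 296 CPM with Aeg-S/L. CDC6 was at 219.7 and 222 CPM in DPBS and 172 and 167 CPM with Aeg-S/L, a log2 change of -0.38. CDC20 was at 148 and 137 CPM in DPBS and 151 and 155 CPM with Aeg-S/L, the stimulated values just above the controls.

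The other members followed in every library were not called in H1437-1 or H1437-2. In H1437-1 CDC20 was at 262, 146 and 156 CPM in DPBS and 147, 129 and 143 CPM with ALT, AURKA at 187, 228 and 200.4 CPM in DPBS and 215, 199.9 and 193 CPM with ALT, and PLK1 at 445, 359 and 445 CPM in DPBS and 381, 326 and 340.3 CPM with ALT. CDC6 was at 178, 233 and 205 CPM in DPBS and 183, 164 and 158 CPM with ALT there, RRM2 at 282, 373 and 359.9 CPM in DPBS and 298, 297 and 276 CPM with ALT, and CCNE1 at 9.60, 8.63 and 6.82 CPM in DPBS and 11.2, 8.05 and 10.2 CPM with ALT. Control and ALT libraries overlapped in each of these genes. In H1437-2 PCNA was at 260.01 and 263 CPM in DPBS and 232 and 226 CPM with Aeg-S/L, MCM2 at 411 and 395 CPM in DPBS and 472 and 445 CPM with Aeg-S/L, RRM2 at 357 and 378 CPM in DPBS and 338 and 324 CPM with Aeg-S/L, and PLK1 at 366 and 362 CPM in DPBS and 386 and 368 CPM with Aeg-S/L. AURKA was at 177 and 176 CPM in DPBS and 143 and 139.8 CPM with Aeg-S/L there, E2F1 at 167 and 151 CPM in DPBS and 196 and 180.1 CPM with Aeg-S/L, CCNE1 at 12.9 and 12.2 CPM in DPBS and 14.3 and 13.1 CPM with Aeg-S/L, and CCNE2 at 15.1 and 14.1 CPM in DPBS and 10.6 and 9.19 CPM with Aeg-S/L. None of these H1437-2 changes passed the test.

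Of the other replication genes, 28 of a list of 29 were tested, of the other mitosis genes all 33, and of the list of kinase inhibitors and retinoblastoma-E2F genes 20 of 23 in H1437 and 21 in H292. In H292-2, Aeg-S/L lowered 19 and raised 2 of the replication list, lowered 22 and raised 4 of the mitosis list, and lowered 5 and raised 9 of the inhibitor list. The counts, lower and higher, were 15 and 0, 16 and 3, and 6 and 7 in H1437-3. WT ALT gave 13 and 0, 20 and 3, and 5 and 5 in H1437-4, and 11 and 1, 19 and 1, and 5 and 3 in H292-1. All genes lower and higher made up 21.1% and 22.1% in H292-2, 15.8% and 15.4% in H1437-3, 17.1% and 15.8% in H1437-4, and 11.3% and 11.6% in H292-1, and the 5 of 21 inhibitor genes lower in H292-2 lie near that share. CDC7, the kinase that fires origins, and its activator DBF4 fell in all 4: CDC7 by 0.75, 0.96, 0.71 and 0.88, and DBF4 by 0.72, 0.96, 0.68 and 1.0, in the order H1437-4, H292-1, H1437-3 and H292-2. ASPM, a spindle-pole protein, fell by 1.31, 1.17, 1.19 and 1.38 in that order.

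WEE1, the kinase that holds CDK1 inactive, went the other way in 4 experiments, with rises of 1.93 in H292-1, 2.55 in H292-2, 1.09 in H1437-3 and 1.10 in H1437-2, and with 0.28 and 0.22 in H1437-1 and H1437-4, neither past the test. Unlike those of members, calls in these other lists, here and elsewhere, were not followed in the fits with 1 library left out. CDKN1A, the gene of the kinase inhibitor p21, rose in H1437 and fell in H292: it rose by 2.26 in H1437-1, 2.02 in H1437-2, 2.07 in H1437-3 and 2.69 in H1437-4, and fell by 0.86 in H292-1 and 0.20 in H292-2. The joint fit called this difference, H292 minus H1437, at -3.59 for WT ALT and -2.25 for Aeg-S/L. CDKN2C, an inhibitor of CDK4 and CDK6, fell by 1.16, 1.03, 0.74 and 1.36 in the order H1437-4, H292-1, H1437-3 and H292-2, and E2F8, a repressor of E2F targets, by 0.88, 0.90, 0.60 and 0.72. Against WT ALT the aegs KO extract raised 14 and lowered 0 of the replication list and raised 20 and lowered 3 of the mitosis list in H1437-4, and raised 12 and lowered 1, and raised 19 and lowered 1, in H292-1. Against Aeg-S/L, EGTA raised 13 and lowered 0, and raised 13 and lowered 3, in H1437-3, and raised 16 and lowered 4, and raised 22 and lowered 5, in H292-2. The shares of all genes higher and lower were 15.7% and 14.2%, 13.2% and 13.4%, 15.8% and 14.8%, and 23.2% and 21.7% in these 4 comparisons.

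Neither protein alone gave a call among the members. Aeg-S alone and Aeg-L alone in H1437-2 each left 0 of 44 members past the test (edgeR, with 0% of all genes called in either direction, and 0 members by DESeq2). At an unadjusted p under 0.05, Aeg-S alone gave 1 replication and 3 mitosis genes, all higher, beside 4.4% of all genes higher and 4.39% lower, and Aeg-L alone 0, beside 0.495% and 0.601%. The 2 Aeg-S libraries held 3.347% and 5.656% mitochondrial counts, against 1.717% to 3.053% in DPBS, and without Aeg-S library 1 the fit called 8 members, 5 higher and 3 lower. CDC25A was at 43.4 and 48.1 CPM with Aeg-S and 44.4 and 43 CPM with Aeg-L, overlapping DPBS at 46.9 and 38.8 CPM, and at 68.6 and 66.3 CPM with both. CCNA2 was at 131 and 144 CPM and 136 and 121 CPM with the single proteins, beside 120.04 and 133 CPM in DPBS. CCND1 was at 247 and 394 CPM with Aeg-S, 1 library at the level of DPBS and 1 above it, and at 229 and 250.5 CPM with Aeg-L. The difference between a single protein and Aeg-S/L was not tested, since it was not among the comparisons fitted.

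With the extracts of the knockout moulds at most 3 members were called against DPBS, and 10 to 15 of the 20 mitosis genes were higher than with WT ALT. Against WT ALT, which these comparisons share with those above, the aegs KO extract had 15 mitosis genes higher and 0 lower (median 0.30) and 12 replication genes higher and 2 lower (median 0.26) in H1437-4, beside 15.7% of all genes higher and 14.2% lower. The aegl KO extract gave 15 and 0 mitosis genes (median 0.33) and 13 and 1 replication genes (median 0.25), beside 16.2% and 14.5%. In H292-1 the counts, higher and lower, were 14 and 0 mitosis and 8 and 3 replication genes with aegs KO (medians 0.80 and 0.21, beside 13.2% and 13.4%), and 10 and 0 mitosis and 9 and 1 replication genes with aegl KO (medians 0.45 and 0.26, beside 9.85% and 9.13%). The H292-1 counts lean on single libraries: the 26 calls with aegs KO were 15 without WT ALT 1 and 17 without WT ALT 2, and the 20 with aegl KO were 7 without either and 12 without aegl KO 1.

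Against DPBS, the aegs KO extract in H1437-4 lowered POLE, MKI67 and CENPF, 1 replication and 2 mitosis genes, beside 0.945% of all genes lower and 0.138% higher. The POLE call was lost without any 1 of the 4 libraries (-0.43 to -0.31) and with the length trend removed, where it was at -0.19. The aegl KO extract lowered MKI67 and CENPF, beside 0.598% and 0.168%, and neither was called without aegl KO library 1. In H1437-4 the mitochondrial share was 1.214% to 1.517% with aegs KO and 1.29% to 1.445% with aegl KO, below 1.58% to 2.829% in DPBS, and its part was not tested. In H292-1 both extracts left 0 members called by edgeR. Of all genes 0% were lower and 0% higher with aegs KO, where 0 members passed an unadjusted p under 0.05 (0.62% of all genes higher and 1.23% lower) and 0 passed by DESeq2. With aegl KO, 0.0241% were lower and 0.0963% higher, 1 replication gene was higher and 6 mitosis genes lower at an unadjusted p under 0.05 (6.68% of all genes higher and 6.8% lower), and DESeq2 called CCND1 and 1 mitosis gene. The mitochondrial share of the aegl KO libraries in H292-1 was 0.5545% and 2.257%, against 2.508% to 2.792% in DPBS, and its part was not tested.

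MKI67 in H1437-4 was at 303 and 294 CPM with aegs KO and 308 and 330.3 CPM with aegl KO, between 278 and 246 CPM with WT ALT and 466 and 439 CPM in DPBS. It was lower than DPBS by 0.60 and 0.51 and higher than WT ALT by 0.19 and 0.28. The calls against WT ALT were lost without WT ALT 2 (0.11), aegs KO ALT 1 (0.17) or aegs KO ALT 2 (0.23) for aegs KO and without aegl KO ALT 2 (0.24) for aegl KO. In H292-1 it was at 466 and 617 CPM with aegs KO and 387 and 571 CPM with aegl KO, overlapping DPBS at 516 and 487 CPM and above WT ALT at 229 and 223 CPM. CCNA2 was at 129 and 120.004 CPM and 121 and 117 CPM with the knockout extracts in H1437-4, beside 125 and 119.5 CPM in DPBS and 61.4 and 70.7 CPM with WT ALT. AURKA in H292-1 was at 285 and 241 CPM and 214 and 217 CPM, all above WT ALT at 126 and 126 CPM.

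CCND1 was lower than with WT ALT by 0.53 (aegs KO) and 0.35 (aegl KO) in H1437-4, where it was at 244 and 231 CPM and 277 and 263 CPM. In H292-1 it was lower by 0.88 with aegs KO, at 242 and 340.2 CPM, a call lost without WT ALT 1 (-0.88). With aegl KO it was at 531 and 470.000 CPM, close to WT ALT at 541 and 533 CPM, and neither the difference from WT ALT, -0.10, nor that from DPBS, 0.90, passed (SE 0.19, adjusted p = 0.17). CDC25A fell against WT ALT with aegs KO by 0.23 in H1437-4 and 0.83 in H292-1, and with aegl KO by 0.44 in H292-1, and was at -0.15 with aegl KO in H1437-4. Those calls were lost without WT ALT 2 (-0.15), aegs KO ALT 1 (-0.22) or aegs KO ALT 2 (-0.22) for aegs KO in H1437-4 and without WT ALT 1 (-0.44), WT ALT 2 (-0.46) or aegl KO ALT 2 (-0.31) for aegl KO in H292-1. PCNA rose against WT ALT by 0.29 and 0.27 in H1437-4 and by 0.73 and 0.71 in H292-1, the last of them lost without WT ALT 1 (0.69) or WT ALT 2 (0.71).

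With the MEK inhibitor Tra all CCND1 values were below those with the stimulus alone, and the difference passed the test in H1437-1. In H1437-1 CCND1 was at 91.9, 104 and 174 CPM with ALT and Tra, against 406, 382 and 374 CPM with ALT and 109, 157 and 173 CPM in DPBS, and fell by 1.65 against ALT (SE 0.27, adjusted p = 0.0058). It overlapped DPBS, from which it differed by -0.25 (SE 0.26, adjusted p = 0.6). In H1437-2 CCND1 was at 235 and 234 CPM with Aeg-S/L and Tra, below Aeg-S/L at 351 and 359.96 CPM and DPBS at 252 and 242 CPM, and the change of -0.60 against Aeg-S/L did not pass (SE 0.20, adjusted p = 0.28). CDC25A was at 40.1, 38.1 and 40.3 CPM with Tra in H1437-1 and 49.3 and 54.2 CPM in H1437-2, below all libraries with the stimulus alone, but the changes of -0.49 and -0.38 did not pass.

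Of the replication genes, E2F2 rose against ALT in H1437-1 by 0.92 (SE 0.20, adjusted p = 0.024), and of the mitosis genes CDC25C by 0.89 and KIF11 by 0.95, beside 1.33% of all genes higher and 3.75% lower. The 1 replication and 2 mitosis genes called by edgeR became 2 and 8 with DESeq2, and with CCND1 the 4 members called, beside 5.08% of all genes in either direction, were 1 without any 1 of the ALT libraries and 2 without ALT+Tra 2. The medians were 0.19 for replication and 0.67 for mitosis genes. MKI67 was at 499.7, 835 and 1375 CPM with ALT and Tra, beside 416, 428 and 355 CPM with ALT, a difference of 1.18 that did not pass (SE 0.40, adjusted p = 0.12). TOP2A was at 587, 753 and 542 CPM and 410.3, 395 and 358 CPM. Across the 20 mitosis genes this difference had a Spearman rho of 0.72 with exon length (n = 20 genes, no test), and its counterpart against DPBS 0.82. Over all tested genes the 2 values were 0.34 and 0.41.

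Against DPBS, ALT with Tra left 0 members called by edgeR, beside 0.123% of all genes higher and 0.16% lower. At an unadjusted p under 0.05, 3 replication genes were lower and 4 mitosis genes higher, beside 7.56% of all genes lower and 7.78% higher, and DESeq2 called 1 mitosis gene higher. In H1437-2 Aeg-S/L with Tra left 0 members called against Aeg-S/L (0.124% of all genes higher and 1.15% lower, 1.27% in all, with 5 mitosis genes higher and 1 replication gene lower at an unadjusted p under 0.05, beside 3.56% and 5.65% of all genes, and 0 by DESeq2), and the medians were 0.17 and 0.26. Against DPBS it also left 0 called (0.478% higher and 0.0177% lower of all genes, with 1 replication gene higher and 2 mitosis genes lower at an unadjusted p under 0.05, beside 4.42% and 4.47%, and 0 by DESeq2). CCNA2 there was at 104 and 103 CPM with Tra, 74.7 and 77.8 CPM without it and 120.04 and 133 CPM in DPBS, so that the Tra libraries lay between the others. CDKN1A fell with Tra, by 2.26 against ALT and by 1.40 against Aeg-S/L, and CDKN2C rose by 1.29 against ALT.

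With either chelator most of the mitosis genes that Aeg-S/L had lowered in H292-2 were higher than with Aeg-S/L. Against Aeg-S/L, whose libraries these comparisons share with those against DPBS, BAPTA-AM in H292-2 raised 18 mitosis and 15 replication genes and lowered 0 of either list (medians 0.48 and 0.30), beside 17.6% of all genes higher and 20.3% lower. EGTA raised 18 mitosis and 15 replication genes and lowered 0 and 2 (medians 0.65 and 0.28), beside 23.2% and 21.7%. In H1437-3, EGTA raised 14 mitosis and 12 replication genes and lowered 0 and 3 (medians 0.35 and 0.16), beside 15.8% and 14.8%. BAPTA-AM there raised 8 mitosis genes and 1 replication gene and lowered 2 and 3 (medians 0.18 and 0.02), beside 11.6% and 16.1%. That total of 14 was 9 without Aeg-S/L library 2.

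MKI67 in H292-2 was at 650.3 and 649 CPM with EGTA, overlapping DPBS at 629.8 and 706 CPM, and at 379 and 403 CPM with BAPTA-AM, between DPBS and Aeg-S/L at 219 and 242 CPM. It rose against Aeg-S/L by 1.5 (SE 0.06, adjusted p = 6.3e-13) and 0.76 (SE 0.06, adjusted p = 8.3e-09). In H1437-3 it was at 431 and 479 CPM with EGTA and 384 and 432 CPM with BAPTA-AM, beside 296 and 314 CPM with Aeg-S/L and 325 and 534 CPM in DPBS. CCNA2 in H292-2 came to 177 and 173 CPM with BAPTA-AM and 154 and 173 CPM with EGTA, from 80.5 and 80.6 CPM, and in H1437-3 to 92 and 95.2 CPM and 99.5 and 109 CPM, from 70.6 and 66.9 CPM. All chelator libraries lay above all Aeg-S/L libraries for these 2 genes in both experiments. The MKI67 rise in H1437-3, 0.42 with BAPTA-AM and 0.58 with EGTA, was lost by DESeq2, without Aeg-S/L 1 (0.38), Aeg-S/L 2 (0.47) or Aeg-S/L+BAPTA-AM 2 (0.33) for BAPTA-AM, and without Aeg-S/L 1 (0.54) or Aeg-S/L+EGTA 2 (0.50) for EGTA.

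AURKA, which Aeg-S/L lowered in H292-2, rose there by 0.96 with BAPTA-AM, to 214 and 207 CPM, and by 1.32 with EGTA, to 266 and 274 CPM. PLK1 rose by 0.72 and 0.70 in H292-2 and by 0.39 and 0.18 in H1437-3, the last of them lost without Aeg-S/L 1 (0.16), Aeg-S/L 2 (0.21) or Aeg-S/L+EGTA 2 (0.10). TOP2A rose by 0.38 and 0.57 in H292-2 and by 0.32 and 0.77 in H1437-3, BAPTA-AM given first in each pair. TOP2A stayed below DPBS with BAPTA-AM: the difference against DPBS was -0.50 in H292-2 and -0.47 in H1437-3, both past the test. With EGTA its mean was 477 CPM against 588 CPM in DPBS of H292-2, and 446 CPM against 453 CPM in H1437-3. PLK1 with BAPTA-AM had a mean of 382 CPM against 334 CPM in DPBS of H1437-3, and 284 CPM against 276 CPM in H292-2.

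Among the replication genes PCNA in H292-2 rose by 0.65 with BAPTA-AM and 0.54 with EGTA, to 166 and 171 CPM and 151 and 161 CPM from 107 and 108 CPM. In H1437-3 it rose with EGTA by 0.17, to 261 and 244 CPM, and was at 220.1 and 219 CPM with BAPTA-AM, below Aeg-S/L at 225 and 224 CPM. CDC6 rose in H292-2 by 0.53 and 0.90, to 123 and 122 CPM and 152 and 167 CPM from 85.4 and 85.1 CPM. In H1437-3 it rose with EGTA by 0.24 and was at -0.03 with BAPTA-AM. GINS1 rose by 0.93 and 0.82 in H292-2 and by 0.23 and 0.36 in H1437-3. E2F2 rose with EGTA by 0.56 in H1437-3 and 0.99 in H292-2, while with BAPTA-AM it fell by 0.19 in H1437-3 and rose by 0.42 in H292-2. In H1437-3 the E2F2 call with BAPTA-AM was lost without any 1 of the 4 libraries (-0.23 to -0.15), that of GINS1 without Aeg-S/L 2 (0.18), Aeg-S/L+BAPTA-AM 1 (0.22) or Aeg-S/L+BAPTA-AM 2 (0.25), that of PCNA with EGTA without Aeg-S/L 1 (0.18), Aeg-S/L 2 (0.18) or Aeg-S/L+EGTA 1 (0.12), and that of CDC6 with EGTA without Aeg-S/L+EGTA 2 (0.23). In H292-2 the E2F2 call with BAPTA-AM was lost without Aeg-S/L 2 (0.39) or Aeg-S/L+BAPTA-AM 1 (0.40).

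The genes that rose with Aeg-S/L answered the chelators in different ways. In H1437-3 CDC25A overlapped DPBS, with 43.1 and 44.3 CPM under BAPTA-AM and 42.1 and 46.9 CPM under EGTA (fell by 0.63 and 0.61 against Aeg-S/L). In H292-2 it was at 82.7 and 79.7 CPM and 76.3 and 87.2 CPM, near Aeg-S/L, with changes of -0.19 and -0.18 that did not pass. No fall of CCND1 was called with either chelator. In H1437-3 it was at 280.4 and 294 CPM and 262 and 275 CPM, beside 282 and 293 CPM with Aeg-S/L (log2 changes -0.00 and -0.10). In H292-2 it rose further, to 623 and 612 CPM with BAPTA-AM and 546 and 666 CPM with EGTA, by 0.45 (SE 0.07, adjusted p = 2.8e-05) and 0.43 (SE 0.07, adjusted p = 4.9e-05) over Aeg-S/L. WEE1 fell against Aeg-S/L in all 4 chelator comparisons, by 2.23 and 0.68 in H1437-3 and by 3.44 and 2.29 in H292-2, and CDKN1A by 1.23 and 1.54 and by 1.25 and 1.03, BAPTA-AM first in each pair.

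**Figure D4:**
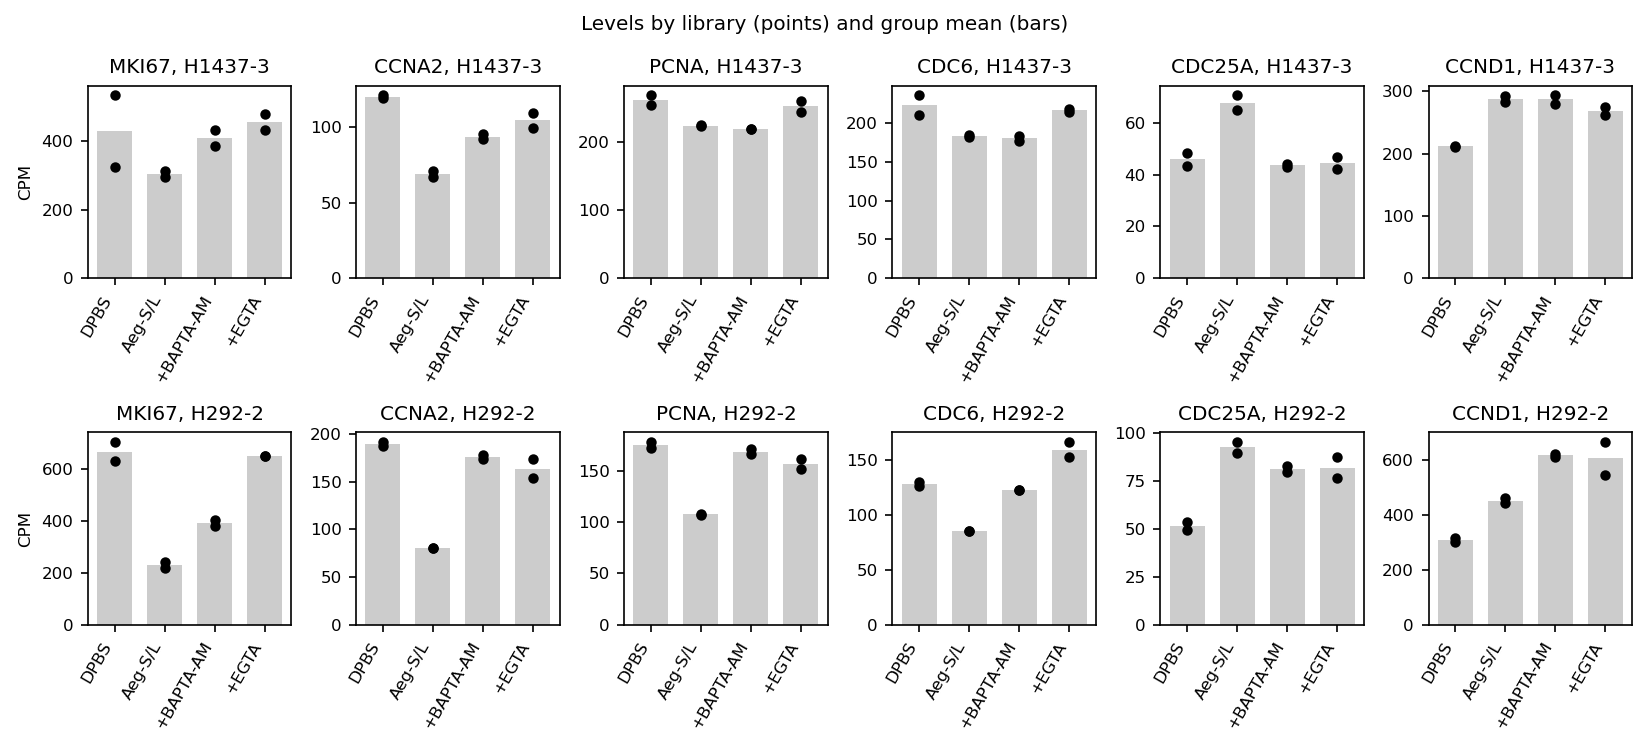
CPM of MKI67, CCNA2, PCNA, CDC6, CDC25A and CCND1 in the DPBS, Aeg-S/L, BAPTA-AM and EGTA groups of H1437-3 and H292-2, with 1 point per library and bars at the mean of 2 from 0. MKI67 and CCNA2 are lowest with Aeg-S/L and higher with either chelator, CDC25A overlaps DPBS with either chelator in H1437-3, and CCND1 is highest in the chelator groups of H292-2.

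Set against DPBS, EGTA in H1437-3 left 1 replication gene higher and 0 lower and 1 mitosis gene lower, besides CCND1 higher, together 3 members beside 5.18% of all genes, with 4.19% of all genes higher and 0.988% lower. BAPTA-AM in H1437-3 left 1 replication gene higher and 14 lower, and 2 mitosis genes higher and 10 lower, with 15% and 19.1%. That total of 28 with CCND1, beside 34.1% of all genes, was 16 without DPBS 2. In H292-2 EGTA left 6 higher and 5 lower replication genes and 1 higher and 5 lower mitosis genes (20.1% and 14.4% of all genes), and the total of 18 was 8 without DPBS 2. BAPTA-AM left 6 and 0 replication and 1 and 9 mitosis genes (17.6% and 19%), and the total of 17 was 11 without BAPTA-AM 1. The mitosis genes still lower with BAPTA-AM in H292-2 were led by MKI67 (-0.77), CENPF (-0.71), KIF11 and CENPE (-0.50 each) and TOP2A (-0.50), and over the 20 genes this difference had a Spearman rho of -0.66 with exon length.

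Compared directly, BAPTA-AM stood below EGTA in 10 mitosis and 12 replication genes in H1437-3 and above it in 3 and 1, beside 21.1% of all genes lower and 16.7% higher. The total of 26, beside 37.7% of all genes, was 16 without EGTA 1. In H292-2 it stood below EGTA in 8 mitosis and 5 replication genes and above it in 2 and 5, beside 24.7% and 21.9%. The largest differences were E2F2 in H1437-3 (-0.75, SE 0.07, adjusted p = 2.7e-07) and MKI67 in H292-2 (-0.73, SE 0.06, adjusted p = 1.2e-08). GINS2, a helicase subunit, stood higher with BAPTA-AM in H292-2, by 0.50. The mitochondrial share, 0.1897% to 0.2173% with BAPTA-AM and 1.06% to 1.401% with EGTA in H292-2, differed between the same libraries.

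The effects in the 2 lines were compared in joint fits of the paired experiments, where line and experiment cannot be told apart. For Aeg-S/L, 12 mitosis genes had a lower log2 change in H292-2 than in H1437-3 and 0 a higher one, as did 5 and 2 replication genes, beside 6.82% of all genes lower and 7.48% higher. MKI67 differed by -1.03 (SE 0.18, adjusted p = 2.6e-04), AURKA by -1.02 (SE 0.08, adjusted p = 3.1e-09) and KIF11 by -0.73 (SE 0.09, adjusted p = 3.0e-06). The MKI67 difference takes in the DPBS libraries of H1437-3, which lay far apart for this gene (mean 429 CPM, SD 148 CPM). The total of 19 was 12 without H292-2 Aeg-S/L 1 or DPBS 1. For WT ALT, 2 mitosis genes (AURKA, -0.87, and CDK1, -0.64) and PCNA (-0.62) had a lower log2 change in H292-1 than in H1437-4, and 4 replication genes a higher one, led by POLE (0.86), beside 4.7% and 4.2% of all genes. The total of 7 was 4 without H292-1 WT ALT 1, H1437-4 WT ALT 2 or H1437-4 DPBS 2, and 3 without H292-1 WT ALT 2. With 1 library of the 8 left out at a time, the CDK1 difference was lost in 7 fits (all but the one without H292-1 DPBS 2) and the PCNA difference in 5, and AURKA was called in all 8.

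The log2 changes with a chelator against Aeg-S/L were higher in H292-2 than in H1437-3 for many members. With BAPTA-AM 12 replication and 9 mitosis genes and CCND1 (0.41) had a higher change and none a lower one, beside 4.99% of all genes with a positive and 6.01% with a negative difference. With EGTA 9 replication and 12 mitosis genes and CCND1 (0.52) did so, beside 8.27% and 6.15%, and that total of 22 was 12 without H1437-3 EGTA 1. AURKA differed most, by 0.97 with BAPTA-AM (SE 0.08, adjusted p = 1.1e-08) and by 1.13 with EGTA (SE 0.08, adjusted p = 6.3e-10). CCNE2 differed by 0.94 and 0.85. These comparisons share the Aeg-S/L libraries with the line difference for Aeg-S/L itself, so a lower Aeg-S/L value in H292-2 enters both. Between experiments of the same line the stimulus effects did not differ past the test in any member. For WT ALT in H1437-4 against ALT in H1437-1 and for Aeg-S/L in H1437-3 against H1437-2 0 of 44 were called (edgeR, with 0.00567% of all genes higher and 0% lower in the first pair, 0% and 0% in the second, and 0 by DESeq2). At an unadjusted p under 0.05 there were 6 replication genes in the first pair, beside 3.8% of all genes higher and 4.69% lower, and 0 members in the second, beside 1.34% and 1.27%.

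**Figure D5:**
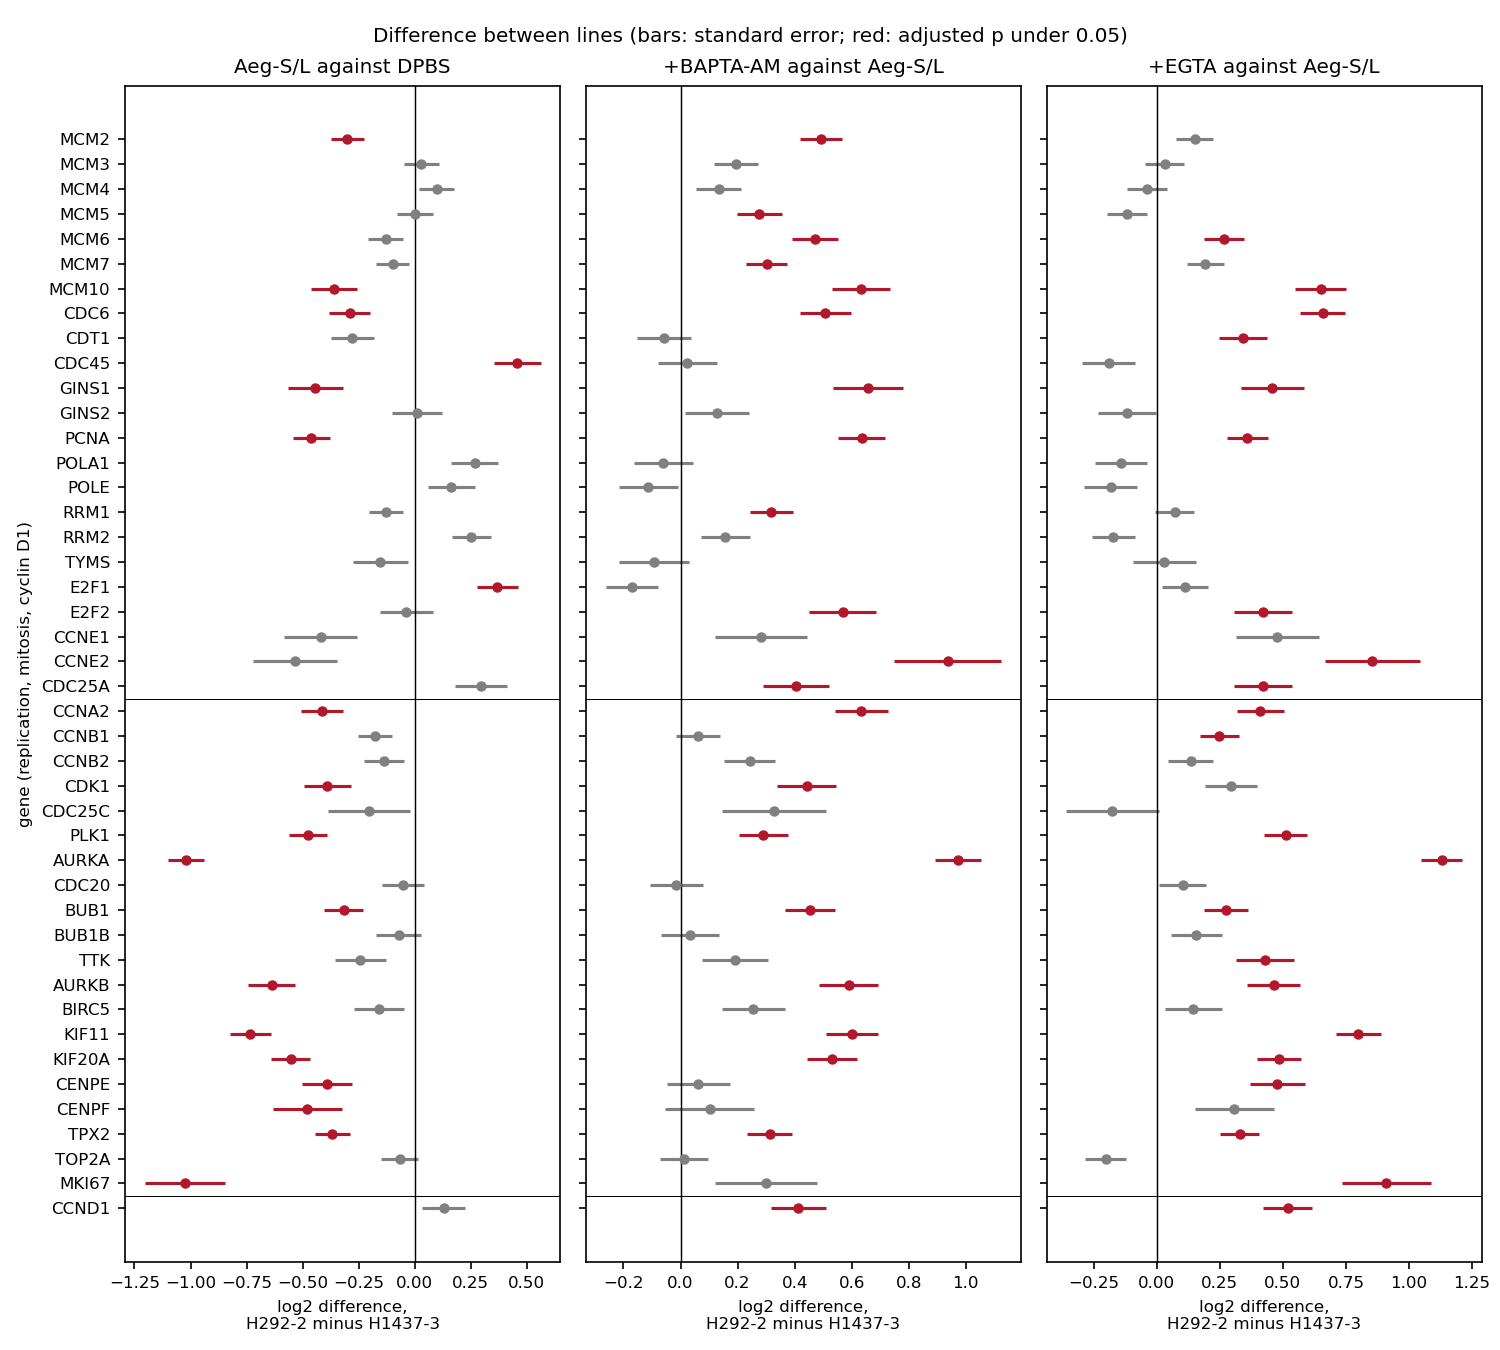
Difference in log2 change between the lines, H292-2 minus H1437-3, for each member, for Aeg-S/L against DPBS, BAPTA-AM against Aeg-S/L and EGTA against Aeg-S/L, with bars of 1 SE and red points where the adjusted p was under 0.05. MKI67 and AURKA lie furthest below 0 for Aeg-S/L, and AURKA furthest above 0 for both chelators.

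Levels between genes can be compared only per length, here as RPKM (CPM per kilobase of exon) in the DPBS libraries, 9 of H1437 and 4 of H292. In H1437 the highest medians were PCNA at 183 RPKM (172 to 219), MCM7 at 122 and CCNB1 at 118, and the lowest CCNE2 at 3.79 and CCNE1 at 5.02. In H292 CDC20 came first at 163 RPKM (147 to 182), then CCNB1 at 138 and TPX2 at 129, and E2F2 came last at 2.64, below CCNE2 at 3.59. The ranges of CDC20 and CCNB1 in H292 overlapped narrowly, with CCNB1 at 131 to 147 RPKM. E2F2 was at 13.7 RPKM in H1437, and its ranges in the lines did not meet. The lines also stood apart in RRM1, at 43.8 RPKM in H1437 and 114 in H292, and in E2F1, at 71.4 and 30.8. MCM7 was alike in both, at 122 and 125 RPKM, with ranges that overlapped. These levels carry no test, since line and experiment cannot be told apart.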

How the data were processed

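RNA-seq was made of 51 human libraries in 24 groups, and 48 mouse libraries in 7 tables were not used here. The authors deposited 6 tables of unnormalised counts per gene, 1 per human experiment, with gene ID, hg19 position and exon length, per the file headers. Gene symbols were matched to these IDs from a separate gene-name reference. Reads were aligned with HISAT2 2.2.1 and counted with featureCounts 2.0.2, and DESeq2 1.36.0 and R 4.2.2 are also named, per the submitters' processing notes. For the strand setting of this counting, the sources used here give nothing. Per the labels' protocols, libraries were made with the NEBNext Ultra kit, which does not mark strand. Each human library held 32425310 to 53172930 counts, and no member fell below 148 counts.

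Each experiment was fitted on all its groups with edgeR 4.0.16 (quasi-likelihood test, filterByExpr, TMM scaling, no replicate block) in R 4.3.3. Joint fits of 2 experiments tested the differences between them. P-values were adjusted by Benjamini-Hochberg over all tested genes, with the threshold for a call at 0.05. CPM were scaled by TMM factors, RPKM were computed from the deposited exon length, and library medians used log2(CPM + 0.5). Standard errors were taken from the log2 change and the F statistic. Alternatives were DESeq2 1.42.0, DESeq2 size factors, no low-count filter, a replicate block, leaving out each library, where a lone sample is assumed to vary like the other groups, and removal of a length trend, chosen after seeing the data. The fits were tested on simulated data.

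The members and lists were chosen with earlier results of these data known. By rule, values in every control and stimulus library are given for 15 members (CCND1, CDC6, CCNE1, CCNE2, E2F1, MCM2, PCNA, RRM2, CDC25A, MKI67, TOP2A, CCNB1, CDC20, PLK1 and AURKA) and for the 3 largest called increases and decreases in a stimulus comparison, and genes of the other lists are named only where among the 3 largest called changes in a direction. UHRF1 and PECAM1 had no match by symbol. In H292-2 the BAPTA-AM columns name the chelator without Aeg-S/L and were matched to the labels' groups with both, and the table's name gives ALT where the labels give Aeg-S/L. Promoters came from RefSeq's GRCh38.p14.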

Additional observations from a re-analysis of the deposited data

Results flagged for a closer look

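The effect of a treatment differed between the lines by a test of the difference itself (edgeR quasi-likelihood test in a joint fit of 2 experiments, Benjamini-Hochberg adjustment over all genes), in each case with H292 and its experiment set against H1437 and its own. Line and experiment cannot be told apart in these values.

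For WT ALT, H292-1 minus H1437-4, 7 members differed, beside 8.9% of all genes. POLE (0.86), POLA1 (0.66) and E2F2 (0.57) had the higher log2 change in H292-1, and AURKA (-0.87), CDK1 (-0.64) and PCNA (-0.62) the lower one. For Aeg-S/L, H292-2 minus H1437-3, 19 members differed, beside 14.3% of all genes. CDC45 (0.46) and E2F1 (0.37) had the higher change in H292-2, and MKI67 (-1.03), AURKA (-1.02) and KIF11 (-0.73) led those with the lower one. The MKI67 value takes in DPBS libraries of H1437-3 that lay far apart.

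For BAPTA-AM against Aeg-S/L, H292-2 minus H1437-3, 22 members differed, beside 11% of all genes, led by AURKA (0.97), CCNE2 (0.94) and GINS1 (0.66). For EGTA against Aeg-S/L 22 members differed as well, beside 14.4% of all genes, led by AURKA (1.13), MKI67 (0.91) and CCNE2 (0.85). The chelator differences and the Aeg-S/L difference share the Aeg-S/L libraries, and their members are therefore given side by side and not as separate support.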

How the results depend on the processing

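No member called in the report or under an alternative changed direction with DESeq2, DESeq2 size factors, no low-count filter or the replicate block, against 4 results with the length trend removed and 2 with 1 library left out. DESeq2 size factors moved no count of called members by over 1.5 times. With ALT and Tra against DPBS in H1437-1 the count of 0 was 3 without the filter and 1 with DESeq2, and against ALT the count of 4 was 9, 11 and, with the length trend removed, 7. Aeg-S alone gave 1 without the filter (0 in the report). The aegl KO extract against DPBS gave 4 in H1437-4 (2) and 2 in H292-1 (0), both without the filter and with DESeq2. The labels give replicates only a number, and whether it marks a pairing was not tested. In H1437-1, deviations of same-numbered libraries correlated between -0.14 and 0.47, and those of differently numbered ones between -0.55 and 0.16. In the other experiments, with groups of 2, the values for same and different numbers mirror each other by construction. The replicate block changed the count of Aeg-S/L against DPBS in H1437-2 from 9 to 4, with no member risen (the CDC25A rise there was lost, as were the falls of GINS1, BUB1B, KIF11 and KIF20A), and moved no other count by over 1.5 times. With 1 library left out, counts ranged from 0 to 11 for ALT (5) and 1 to 6 for ALT with Tra against ALT (4) in H1437-1, 0 to 8 for Aeg-S (0) and 0 to 0 for Aeg-S/L (9) in H1437-2. In H1437-3 BAPTA-AM ranged from 16 to 23 against DPBS (28), 9 to 12 against Aeg-S/L (14) and 16 to 22 against EGTA (26), and in H292-2 BAPTA-AM from 11 to 14 (17) and EGTA from 8 to 20 (18) against DPBS. The aegl KO extract against DPBS in H1437-4 ranged from 0 to 2 (2), and in H292-1 WT ALT from 14 to 20 (22), and aegs KO and aegl KO against WT ALT from 15 to 29 (26) and 7 to 16 (20). Differences between lines ranged from 3 to 7 for WT ALT (7), 12 to 18 for Aeg-S/L (19) and 12 to 21 for EGTA (22). MKI67 with BAPTA-AM against DPBS in H1437-3 turned from -0.07 to 0.33 without DPBS 2 (edgeR adjusted p = 0.0054; -0.39 without DPBS 1), and CCND1 with BAPTA-AM against EGTA in H292-2 from 0.03 to -0.11 without EGTA 1. With the length trend removed, BAPTA-AM against EGTA turned CCNB1 from 0.14 to -0.0017 and CCNB2 from 0.03 to -0.15 in H1437-3 and CCNB2 from 0.17 to -0.036 in H292-2, and BAPTA-AM against Aeg-S/L turned POLE from -0.10 to 0.19 in H292-2. The cause was not tested. No group held more than 3 libraries, which limits the precision.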

Other observations

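The correlation of log2 change with exon length over the 20 mitosis genes, given as a description with no test, was not alike in all comparisons. It was 0.26 for ALT against DPBS in H1437-1, the one stimulus comparison where it was positive. For Aeg-S alone against DPBS it was 0.72 and for Aeg-L alone -0.58. The aegs KO extract against DPBS gave -0.62 in H1437-4 and 0.74 in H292-1, and BAPTA-AM against EGTA gave -0.74 in H292-2. The points share libraries, and members share biology, so n = 20 does not count independent values.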
